A study of Mus musculus with 6 samples.

Results

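The PDGF and VEGF ligands and receptors are secreted growth factors and the receptor tyrosine kinases they bind. In RNA sequencing of a pair of mouse mammary tumor cell populations, 10 of these genes were followed, taken by symbol out of the 24129 gene names of the deposited table. They comprise the PDGF ligands Pdgfa, Pdgfb and Pdgfc with the receptors Pdgfra and Pdgfrb, and the VEGF ligands Vegfa, Vegfb and Vegfc with the receptors Flt1 and Flt4. Both populations came from 4T1GFP cells, the GFP-tagged form of the 4T1 line of triple negative mammary carcinoma from BALB/c mice, grown as a tumor in the mammary fat pad of BALB/c mice. T1 cells, labelled 4T1A, had low GFP, grew as an adherent epithelial layer, proliferated fast and were aggressive in mice. T2 cells, labelled 4T1NA, had high GFP, grew round and loosely attached, proliferated slowly and were less aggressive. There were 3 replicates of each, cultured in the same serum-containing medium without any treatment. The parental 4T1GFP cells, which the study also sequenced, were not analysed here. Each population is a sorted culture rather than a set of independent tumors, and the labels call the replicates independent without saying what separates them, so p-values measure the spread between these samples only.

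PDGF ligands act as dimers that bring together PDGF receptors, which are best known on fibroblasts, pericytes and smooth muscle cells, where they drive proliferation and migration. VEGF ligands act on the receptors Flt1, Kdr and Flt4, which are best known on blood and lymphatic endothelium, with neuropilins as co-receptors, and they control vessel growth and permeability. Carcinoma cells are commonly a source of these ligands, while the receptors are usually read as markers of the stroma around them. Pdgfra encodes CD140a, the surface protein by which the study sorted cancer associated fibroblasts from the tumor before GFP-positive tumor cells outgrew that culture. Both T1 and T2 cells descend from that sorted culture, and they were then separated from each other by GFP and not by CD140a. The study also counted Pdgfra among the mesenchymal markers whose RNA differed between T1 and T2 cells in quantitative PCR.

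The members that changed past both filters were Pdgfra, Flt1, Pdgfc and Vegfc, and the 250 bases before their annotated starts are shown because these genes moved in opposite pairs, Pdgfra and Flt1 with higher levels in T2 cells and Pdgfc and Vegfc with higher levels in T1 cells. The sequences are those of RefSeq on build GRCm38.p6, written 5′ to 3′ on the strand of the gene. Capitals mark the GC box GGGCGG, the core letters of the hypoxia response element, ACGTG or GCGTG, and the AP-1 motif TGANTCA, each searched on both strands, and no match of one motif overlapped a match of another in them.
Pdgfra, chr5:75152001-75152250, plus strand: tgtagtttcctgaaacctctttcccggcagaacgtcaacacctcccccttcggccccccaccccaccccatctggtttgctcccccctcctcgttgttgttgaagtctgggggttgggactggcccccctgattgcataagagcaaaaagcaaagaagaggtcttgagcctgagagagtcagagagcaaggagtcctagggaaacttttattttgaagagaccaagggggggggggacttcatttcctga
Flt1, chr5:147726012-147726261, minus strand: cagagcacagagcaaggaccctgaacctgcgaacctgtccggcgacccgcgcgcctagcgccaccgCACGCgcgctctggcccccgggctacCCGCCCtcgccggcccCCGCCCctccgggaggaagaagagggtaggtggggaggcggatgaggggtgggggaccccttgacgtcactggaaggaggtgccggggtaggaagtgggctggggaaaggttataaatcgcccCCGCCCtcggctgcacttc
Pdgfc, chr3:81036166-81036415, plus strand: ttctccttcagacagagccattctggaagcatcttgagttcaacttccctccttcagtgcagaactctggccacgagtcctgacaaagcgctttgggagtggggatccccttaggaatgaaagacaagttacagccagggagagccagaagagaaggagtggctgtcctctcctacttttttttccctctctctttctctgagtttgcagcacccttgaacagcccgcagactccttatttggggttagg
Vegfc, chr8:54077282-54077531, plus strand: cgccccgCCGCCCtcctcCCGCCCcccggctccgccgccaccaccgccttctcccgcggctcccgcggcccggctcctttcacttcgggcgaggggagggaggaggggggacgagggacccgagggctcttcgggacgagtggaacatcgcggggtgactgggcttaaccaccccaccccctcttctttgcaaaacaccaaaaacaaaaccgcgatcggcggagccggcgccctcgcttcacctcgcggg
The promoters of Vegfc and Flt1 were rich in CpG, with 30 and 23 CpG dinucleotides and a GC content of 71.6% and 70.4%. Those of Pdgfra and Pdgfc held 4 and 3 CpG dinucleotides and had a GC content of 54.4% and 50.8%. Over 32536 distinct windows of the same length before RefSeq starts, the medians were 6 CpG dinucleotides and 52.4%. Each pair of genes that moved together therefore held a CpG-rich and a CpG-poor promoter. The GC box matched 3 times in Flt1 and 2 times in Vegfc and had no match in Pdgfra or Pdgfc, and 33.0% of all windows held it. The hypoxia core had 1 match in Flt1 and in none of the others printed, against 38.8% of all windows, and the AP-1 motif matched in none of them, against 6.73%. An entry was found for 8 of the 10 members, and Pdgfb and Pdgfrb had none.

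The T1 libraries held 18133227 to 20839686 reads on genes and the T2 libraries 18719791 to 20307207. The deposited values are read counts per gene divided by 1 size factor per sample, called normalized counts here, and 1 read was worth 0.928 to 1.06 of them. No library was a repeat of another, since the chi-square per degree of freedom between replicates, 7.96 to 25.0, exceeded what sampling of reads gives. Genes averaging 10 or more normalized counts, 11514 in number, entered a limma comparison of log2 values after adding 1. Fold changes are T1 minus T2 on this scale and come out too small for genes with few reads. A gene was past both filters where its adjusted p-value was under 0.01 and its log2 fold change was beyond 2 in either direction, the filters of the study. Of all genes compared, 8.37% were past both filters, 4.17% higher and 4.2% lower in T1 cells, and 49.5% were under the adjusted p-value whatever their fold change, 25.1% higher and 24.4% lower. Of the 10 members, 8 had enough reads to be compared. Past both filters, 2 of the 8 were higher and 2 were lower in T1 cells, 2 more were under the adjusted p-value alone, and the median log2 fold change was 0.15, against -0.0055 for all genes. The T1 and T2 values did not overlap in 6 of the 8, where 68.1% of all genes compared did not. Since RNA came from whole cultures, fewer cells with a transcript and less of it per cell cannot be told apart.

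**Figure D1:**
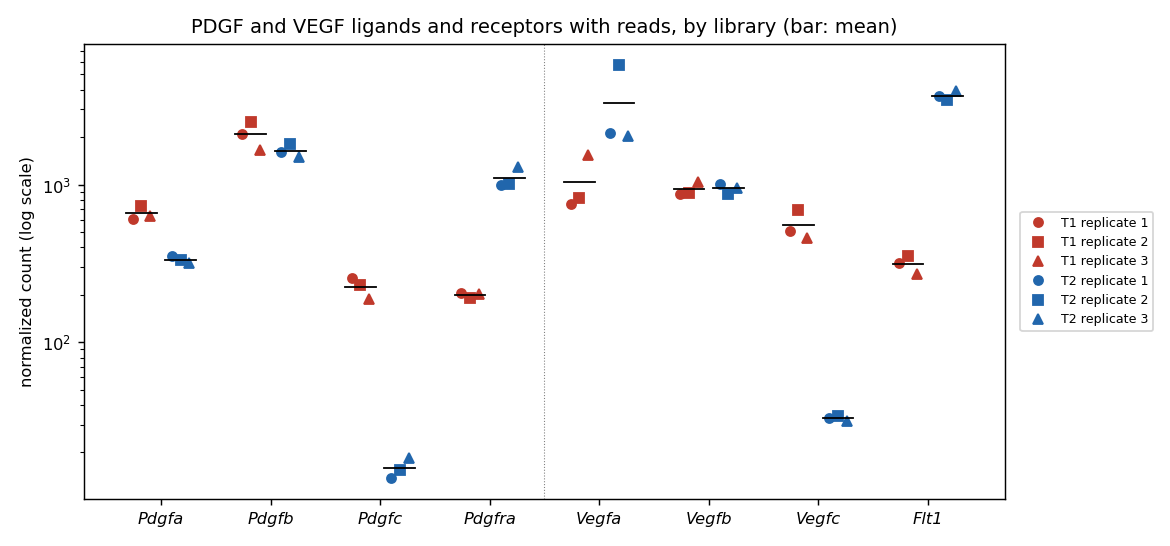
Normalized counts, on a log axis, of the 8 members with reads in each of the 3 T1 libraries (red) and 3 T2 libraries (blue), with a black bar at the mean of each population. Pdgfra and Flt1 lie higher in T2 cells, Pdgfc and Vegfc lie higher in T1 cells, and the T2 replicate 2 value of Vegfa, 5773, stands above the other T2 values. Pdgfrb and Flt4 had 0 reads in every library and are not drawn.

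Pdgfra, the receptor for PDGF-A, PDGF-B and PDGF-C chains, spans 75152292 to 75198215 on chromosome 5 (build mm10, as for all positions here). Normalized counts of Pdgfra were 206, 191 and 201 in the T1 libraries and 996, 1004 and 1295 in the T2 libraries. All 3 T2 values were thus well above the T1 values, which lay within a narrow range. T1 cells averaged 199 ± 7.98 and T2 cells 1099 ± 171 (SD, n = 3), 5.51-fold higher in T2 cells. This was a log2 fold change of -2.45 (standard error, SE, 0.13, 95% confidence interval -2.73 to -2.16, limma adjusted p = 1.26e-07).

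Pdgfrb, the other PDGF receptor and a common marker of pericytes, had 0 reads in all 6 libraries. A count of 0 allows up to 3 reads per library, which is 2.78 to 3.17 normalized counts for counting error only. Pdgfrb was therefore not detectable in either population at this depth, whereas Pdgfra was read 195 to 206 times in T1 and 981 to 1396 times in T2 libraries. Pdgfrl, a secreted protein that resembles the outer part of a PDGF receptor, was lower in T1 cells past both filters. It had 4.23, 1.86 and 6.83 normalized counts in the T1 and 96.9, 97.3 and 152 in the T2 libraries, a log2 fold change of -4.54 (SE 0.39, limma adjusted p = 4.57e-06).

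Among the PDGF ligands, Pdgfc made the clearest difference. Pdgfc, which is secreted in a latent form and must be cleaved to bind Pdgfra, lies on chromosome 3 from 81036416 to 81214040. Its normalized counts were 254, 232 and 187 in the T1 libraries and 13.7, 15.4 and 18.6 in the T2 libraries, so that the lowest T1 value was far above the highest T2 value. T1 cells averaged 224 ± 33.9 and T2 cells 15.9 ± 2.47 (SD, n = 3), 14.1-fold higher in T1 cells. On the log2 scale the difference was 3.74 (SE 0.22, 95% confidence interval 3.25 to 4.22, limma adjusted p = 2.86e-07).

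Pdgfa, which encodes the A chain that binds Pdgfra, lies on chromosome 5 from 138976014 to 138997370. It had 605, 734 and 631 normalized counts in T1 and 353, 334 and 318 in T2 libraries. The populations did not overlap, and the mean was 657 ± 67.9 against 335 ± 17.1 (SD, n = 3 each), 1.96-fold higher in T1 cells. With a log2 fold change of 0.97 (SE 0.11, limma adjusted p = 4.13e-05), Pdgfa passed the adjusted p-value but not the filter on fold change.

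Pdgfb encodes the B chain, which binds both PDGF receptors, and lies on chromosome 15 from 79995874 to 80014977. It was the PDGF ligand with most reads, with 2086, 2499 and 1669 normalized counts in T1 and 1615, 1808 and 1504 in T2 libraries. Here the populations overlapped, because T2 replicate 2 lay above T1 replicate 3. The log2 fold change of 0.33 (95% confidence interval 0.03 to 0.63, adjusted p = 0.0569, limma) was not past the adjusted p-value. It passed without T1 replicate 3, at 0.48 (limma adjusted p = 0.00322), and fell to 0.19 without T1 replicate 2 (limma adjusted p = 0.23). Annotated transcripts on the other strand overlap Pdgfra, Pdgfa, Pdgfb and Pdgfc. As no strand setting was given for the counting, reads from such transcripts cannot be told apart from those of the 4 genes.

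Flt1, the VEGF receptor VEGFR1, showed the largest difference among the receptors. It lies on chromosome 5 from 147561604 to 147726011 and binds Vegfa, Vegfb and placental growth factor, and a soluble form of it acts as a decoy for these ligands. The T1 libraries had 317, 353 and 270 normalized counts and the T2 libraries 3643, 3456 and 3923. Every T2 value was thus many times every T1 value, with little spread on either side. T1 cells averaged 314 ± 41.6 and T2 cells 3674 ± 235 (SD, n = 3), 11.7-fold higher in T2 cells. The fold change of Flt1 was -3.55 on the log2 scale (SE 0.11, 95% confidence interval -3.80 to -3.31, limma adjusted p = 4e-09). GENCODE annotates 6 transcripts of Flt1, and counts per gene cannot tell the soluble form from the membrane receptor.

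Flt4, the receptor of Vegfc on lymphatic endothelium, had 0 reads in all 6 libraries, and so had Kdr, the main signalling receptor of Vegfa on endothelium. Both were below the floor of 3 reads per library, so Flt1 was the VEGF receptor detected in these cells. The co-receptors were read in both populations, in opposite directions. Nrp1 had 2439, 3368 and 2156 normalized counts in T1 and 387, 495 and 399 in T2 libraries, a log2 fold change of 2.62 (SE 0.16, limma adjusted p = 3.9e-07). Nrp2 had 5884, 6209 and 7774 in T1 and 9420, 10622 and 9283 in T2 libraries. Its log2 fold change was -0.57 (SE 0.11, limma adjusted p = 0.000946), under the adjusted p-value but within the fold filter.

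Vegfc, a ligand of Flt4 and Kdr that is known for lymphatic vessel growth, lies on chromosome 8 from 54077606 to 54187096. It had 507, 694 and 457 normalized counts in T1 and 33.3, 33.8 and 31.5 in T2 libraries. The T2 values were nearly equal, and the lowest T1 value was far above them. T1 cells averaged 552 ± 125 and T2 cells 32.9 ± 1.18 (SD, n = 3), 16.8-fold higher in T1 cells. The log2 fold change of 4.01 (SE 0.18, 95% confidence interval 3.60 to 4.42, limma adjusted p = 5.76e-08) was the largest of the members in size.

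Vegfb, a ligand of Flt1, lies on chromosome 19 from 6982473 to 6987651 and had 878, 889 and 1037 normalized counts in T1 and 1014, 876 and 947 in T2 libraries. The ranges overlapped almost entirely, at a mean of 935 ± 89.0 and 946 ± 69.0 (SD, n = 3 each). The log2 fold change was -0.02 with a 95% confidence interval of -0.25 to 0.21 (adjusted p = 0.886, limma), so differences beyond that interval were not found. Placental growth factor, Pgf, another ligand of Flt1, was low, at 14.8, 27.0 and 18.5 normalized counts in T1 and 50.9, 29.7 and 47.3 in T2 libraries. Its values did not overlap, but its log2 fold change of -1.05 was not past the adjusted p-value (adjusted p = 0.0154, limma).

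Vegfa, the main angiogenic factor and a ligand of Kdr and Flt1, lies on chromosome 17 from 46016993 to 46032369 and has 13 annotated transcripts, which counts per gene pool. The T1 libraries had 753, 822 and 1548 normalized counts and the T2 libraries 2120, 5773 and 2024. Every T2 value was above every T1 value, yet T1 replicate 3 and T2 replicate 2 stood apart from their own replicates. T1 cells averaged 1041 ± 440 and T2 cells 3305 ± 2137 (SD, n = 3). The standard deviation was 42.3% of the mean in T1 and 64.7% in T2 cells, against medians of 8.50% and 7.79% over genes with a mean of at least 100 and at most 22.6% for any other member. Its log2 fold change was -1.56 (SE 0.38, 95% confidence interval -2.40 to -0.72, limma adjusted p = 0.00455), under the adjusted p-value but not past the fold filter. It was -1.07 without T2 replicate 2 (adjusted p = 0.00724, limma) and -1.89 without T1 replicate 3 (adjusted p = 0.00157, limma). Without both of them, which were picked for their Vegfa values, it was -1.39, given as a description. Leaving out T1 replicate 1 or T1 replicate 2 moved the adjusted p-value over 0.01, to 0.0195 and 0.0163 (limma).

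**Figure D2:**
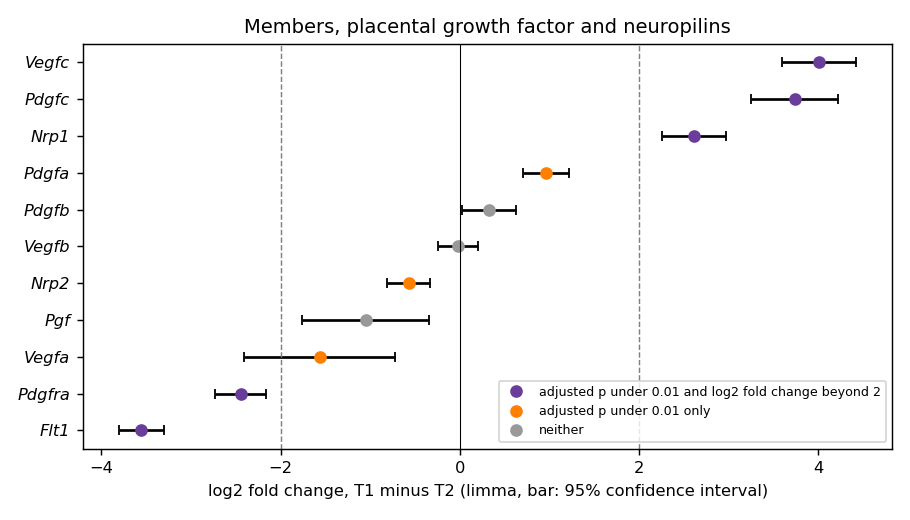
The limma log2 fold change (T1 minus T2) of the 8 members with reads and of Nrp1, Nrp2 and Pgf, with bars for the 95% confidence interval and dashed lines at the fold filter of 2 in either direction. Vegfc, Pdgfc and Nrp1 lie beyond the filter on the T1 side and Flt1 and Pdgfra on the T2 side, and Vegfa, at -1.56, has the widest interval of the members.

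The libraries with the highest Vegfa of their population also stood apart in other genes, which were looked at after the values of Vegfa were seen. T2 replicate 2 had the highest value of its population in 17 of 18 immediate early genes, the transcription factors and regulators that cells induce within minutes of a stimulus, with a median of 2.27 times the mean of the other T2 libraries. Over all genes compared it was highest in 33.6%. In Atf3, for example, the T2 libraries had 195, 2897 and 267 normalized counts, and in Egr1 they had 2675, 6081 and 2669. In T1 cells it was replicate 2 that was highest in 16 of the same 18 genes, with a median of 1.55 times the mean of the others, and Vegfa was not raised there, at 822 normalized counts. T1 replicate 3, which had the highest Vegfa of T1 cells, was highest in 0 of the 18. Its median was 0.67 times the mean of the other T1 libraries.

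T1 replicate 3 had the highest value of its population in 14 of 14 target genes of Atf4, the transcription factor of the amino acid and endoplasmic reticulum stress response. The median was 2.43 times the mean of the other T1 libraries, and over all genes compared this library was highest in 41.4%. T2 replicate 2 was the highest of its population in 9 of the 14, with a median of 1.06 times the mean of the others, and Ddit3 there was 2.90 times that mean. Trib3 had 495, 524 and 2636 normalized counts in the T1 libraries, and Asns had 3572, 2956 and 6673. In 11 genes that low oxygen induces, neither library stood apart, each being the highest of its population in 2 of the 11. Between the populations, the adjusted p-value of limma was under 0.01 for 10 immediate early genes that were lower in T1 cells and 1 that was higher. Of the 14 Atf4 targets, 9 were higher and 0 lower at that p-value. Of the 11 genes that low oxygen induces, 5 were lower in T1 cells and 1 was higher. Over all genes compared, 24.4% were lower and 25.1% higher. The part of these genes in the Vegfa values was not tested.

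**Figure D3:**
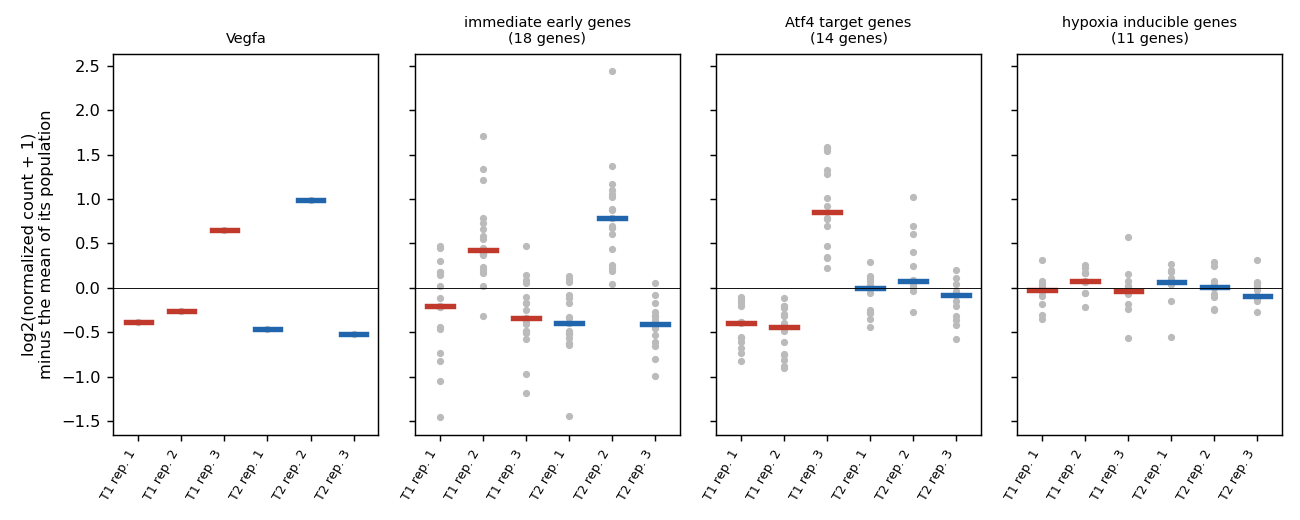
Deviation of log2(normalized count + 1) from the mean of its own population in each of the 6 libraries, for Vegfa, 18 immediate early genes, 14 target genes of Atf4 and 11 genes induced by low oxygen, with a grey point per gene and a bar at the median (red T1, blue T2). Vegfa is high in T1 replicate 3, where the Atf4 targets are high, and in T2 replicate 2, where the immediate early genes are high. The immediate early genes are also high in T1 replicate 2, where Vegfa is not, and as a list they are not high in T1 replicate 3.

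Levels were compared between genes per kilobase of annotated exons. In T1 cells the order from high to low was Vegfb at 583 ± 55.4, Pdgfb at 501 ± 99.7, Vegfa at 243 ± 103, Vegfc at 226 ± 51.0, Pdgfa at 211 ± 21.8, Pdgfc at 44.1 ± 6.65, Flt1 at 23.2 ± 3.08 and Pdgfra at 19.9 ± 0.796 normalized counts per kilobase (SD, n = 3). The ranges of Vegfb and Pdgfb overlapped, as did those of neighbours from Vegfa to Pdgfa, and those of Flt1 and Pdgfra. Each of these 6 ligands thus stood above both receptors in T1 cells. In T2 cells the order was Vegfa at 771 ± 499, Vegfb at 589 ± 43.0, Pdgfb at 395 ± 37.0, Flt1 at 272 ± 17.4, Pdgfra at 110 ± 17.0, Pdgfa at 107 ± 5.50, Vegfc at 13.4 ± 0.480 and Pdgfc at 3.12 ± 0.485 normalized counts per kilobase (SD, n = 3). Here Vegfa and Vegfb overlapped, and Pdgfra and Pdgfa did, while Flt1 stood above 3 of the 6 ligands. Vegfa stood first by T2 replicate 2 alone, at 495, 1347 and 472 per kilobase in T2 replicates 1, 2 and 3. Vegfb had 632, 546 and 590 there and was above Vegfa in replicates 1 and 3. With the length of the longest transcript in place of all exons, a choice made after seeing the data, Pdgfa came before Vegfa and Vegfc in T1 cells and before Pdgfra in T2 cells. With that length the ranges of Flt1 and Pdgfra no longer overlapped in T1 cells, and those of Pdgfb and Flt1 overlapped in T2 cells.

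The make-up of the ligands within each library differed accordingly. Of the summed level per kilobase of Vegfa, Vegfb and Vegfc, Vegfc held 22.3%, 27.5% and 15.6% in the T1 libraries and 1.19%, 0.723% and 1.20% in the T2 libraries. Vegfa held 18.9%, 18.6% and 30.3% in the T1 and 43.4%, 70.6% and 43.9% in the T2 libraries. Vegfb held 58.8%, 53.8% and 54.1% in the T1 and 55.4%, 28.6% and 54.9% in the T2 libraries. Among Pdgfa, Pdgfb and Pdgfc, the share of Pdgfc was 5.16% to 6.70% in T1 and 0.535% to 0.781% in T2 libraries. Pdgfb held the largest share in every library, at 62.6% to 68.1% in T1 and 77.0% to 79.8% in T2 cells. These shares follow from the levels given above and are a description.

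**Figure D4:**
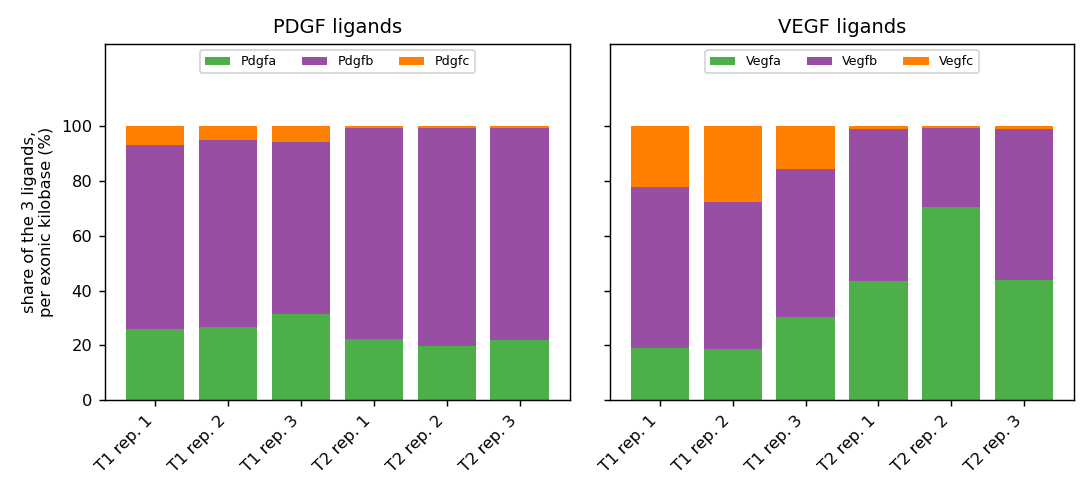
Share, in percent, of each of 3 PDGF ligands (left) and 3 VEGF ligands (right) in their summed level per exonic kilobase, with 1 bar per library. Vegfc takes 15.6% to 27.5% of the VEGF ligands in T1 and at most 1.20% in T2 libraries, and Pdgfb is the largest PDGF share in every library.

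Around the members, genes of the pathway were followed in lists. For each list, the share to set beside it is that of all genes compared. Past both filters this was 8.37%, with 4.17% higher and 4.2% lower in T1 cells. Of 11 proteases and helpers that process these ligands, 9 were compared, of which 2 were higher and 0 lower in T1 cells past both filters. St14, the membrane protease matriptase, had 3595, 3672 and 4331 normalized counts in T1 and 145, 137 and 142 in T2 libraries, 27.3-fold higher in T1 cells (log2 fold change 4.76, standard error 0.10, adjusted p = 5.1e-10, limma). Pcsk6, a proprotein convertase that is also among the candidate genes the study selected from these libraries, was read 250, 345 and 240 times in the T1 and 3, 0 and 0 times in the T2 libraries. The excess in T1 cells was at least 93.2-fold, computed against 3 reads per library.

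None of the 18 adaptor and effector proteins next to the receptors was past both filters. Under the adjusted p-value alone 3 were higher and 6 lower in T1 cells and 9 were not past it, close to the 49.5% of all genes. Their median log2 fold change was -0.19. Of 8 proteins that attenuate the receptors, 7 were compared and 1 was past both filters. This was Sh2b3, an adaptor that restrains receptor and cytokine signalling, with 1005, 847 and 1155 normalized counts in T1 and 5812, 5643 and 5265 in T2 libraries (log2 fold change -2.48, standard error 0.11, adjusted p = 4.45e-08, limma).

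Of 10 oxygen sensing regulators of Vegfa, 7 were compared and 1 was past both filters. Egln3, a prolyl hydroxylase that marks hypoxia inducible factors for degradation and is itself induced by low oxygen, had 529, 496 and 521 normalized counts in T1 and 3381, 3071 and 3442 in T2 libraries. It was 6.40-fold higher in T2 cells (log2 fold change -2.67, standard error 0.08, adjusted p = 4e-09, limma). Its T2 values lay close together, unlike those of Vegfa in the same libraries. Of 7 type III receptor tyrosine kinases, the family of the PDGF receptors, and their ligands, 4 were compared, and Kitl was past both filters. Kitl, the ligand of Kit, had 507, 486 and 338 normalized counts in T1 and 2238, 2045 and 2393 in T2 libraries (log2 fold change -2.34, standard error 0.15, adjusted p = 4.7e-07, limma).

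Other secreted modulators of vessels, listed together with endothelial receptors, moved in both directions. Of 11, 8 were compared, 4 were higher and 3 lower in T1 cells past both filters, and their median log2 fold change was 0.43. Thbs1, which encodes the angiogenesis inhibitor thrombospondin 1, had 52127, 46676 and 56351 normalized counts in T1 and 2705, 2994 and 2850 in T2 libraries (log2 fold change 4.18, standard error 0.08, adjusted p = 4.04e-10, limma). Adamts1, a secreted protease with antiangiogenic activity, had 11765, 16484 and 10130 in T1 and 402, 1492 and 442 in T2 libraries (log2 fold change 4.28, standard error 0.41, adjusted p = 8.99e-06, limma), with T2 replicate 2 again the highest of its population. Lower in T1 cells were Angptl2, a secreted angiopoietin-like protein, which was 7.90-fold higher in T2 cells, and Angpt1, the agonist of the endothelial receptor Tek. Angpt1 was read 1, 0 and 0 times in T1 and 38, 25 and 40 times in T2 libraries, at least 11.2-fold higher in T2 cells against 3 reads per library.

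Of the 7 class 3 semaphorins, secreted ligands of the neuropilins, 4 were compared, with 0 higher and 2 lower in T1 cells past both filters. Sema3a had 6.35, 2.79 and 4.88 normalized counts in T1 and 271, 228 and 279 in T2 libraries (log2 fold change -5.57, standard error 0.29, adjusted p = 1.24e-07, limma). Sema3b had 140, 181 and 221 in T1 and 956, 855 and 997 in T2 libraries (log2 fold change -2.39, standard error 0.16, adjusted p = 8.17e-07, limma). Of the 7 remaining PDGF and VEGF family genes, 4 were compared, and Nrp1 and Pdgfrl, given above, were the 2 past both filters.

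**Figure D5:**
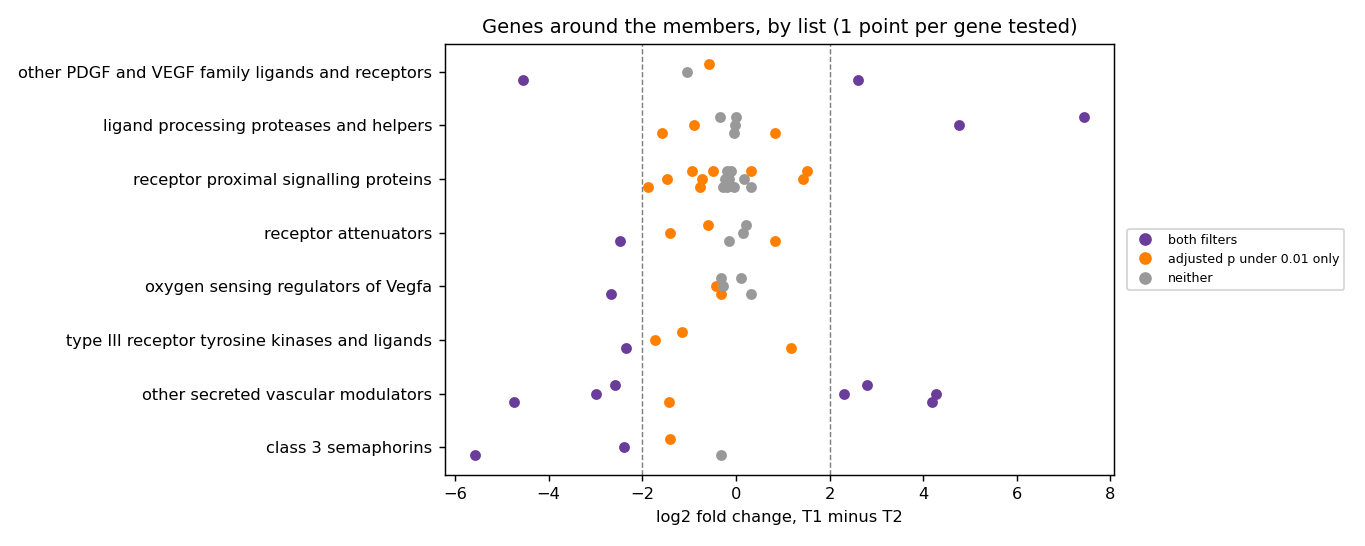
The limma log2 fold change (T1 minus T2) of every compared gene in the 8 lists around the members, with dashed lines at the fold filter of 2 in either direction. Purple points are past both filters, orange points under the adjusted p-value of 0.01 alone and grey points neither. The 18 receptor proximal signalling proteins all lie between the dashed lines.

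As the receptors are known as stromal markers, markers of other cell types were read in the same libraries. Among 10 endothelial genes only Egfl7 passed the filter on low values, Kdr and Emcn had 0 reads in every library, and their summed level was 233 to 266 normalized counts in T1 and 202 to 233 in T2 libraries. Of 10 fibroblast genes, Col1a1 and Col5a1 had enough reads and Col3a1, Lum, Thy1 and Fbln1 had 0 reads. The fibroblast sum was 2611 to 3245 in T1 and 664 to 1074 in T2 libraries, and Col5a1 made up nearly all of it. Col1a1 was low, at 14.8, 27.9 and 24.4 normalized counts in T1 and 0.979, 0 and 0 in T2 libraries. Of 8 pericyte genes, Mcam alone had enough reads, at 735 to 1405 in T1 and 209 to 305 in T2 libraries, Kcnj8 and Abcc9 had 0, and the sum was 752 to 1426 in T1 and 237 to 320 in T2 libraries. Of 8 leukocyte genes, 1 had enough reads and 2 had 0 reads. The leukocyte sum was 61.4 to 95.6 in T1 and 92.8 to 127 in T2 libraries. The part of other cell types in the values of Flt1 and Pdgfra was not tested. Of 6 epithelial genes all were read in T1 cells, and Krt8 and Krt18 were at 17357 to 25833 normalized counts over the 6 libraries, while Epcam, Cdh1, Krt14 and Krt19 were lower in T2 cells past both filters.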

How the data were processed

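RNA sequencing of 6 samples was used, 3 of each population, which was read from the sample labels. The authors removed adapters with Trimmomatic, aligned to mm10 with TopHat2, used HTSeq to obtain gene counts and DESeq2 to normalize them. The deposited signal is thus a count over its sample's size factor. Versions, the gene annotation and the strand setting are not given in the sources used here. Whole reads were recovered from the deposited values, of which 100% were whole multiples of 1 read within 0.01 reads for values under 5000 reads. There were 0 columns of values that went unused, and 27 gene names had been changed to dates.

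T1 was compared with T2 in limma 3.58.1 (R 4.3.3) with a variance trend, after adding a pseudocount of 1 and taking log2, for genes averaging 10 or more normalized counts. P-values were adjusted by Benjamini and Hochberg over all genes compared. Members and lists were chosen with earlier results of these data known. All members were named, of each pathway list the genes past both filters, and where there were more than 4 the 2 largest in each direction. Of the marker lists the sums were given. The genes Kdr, Pgf, Nrp1 and Nrp2 were named whatever their values. Marker genes at 0 reads were named, except for 2 of the leukocyte list. Other marker genes and the immediate early, Atf4 target and low oxygen genes were chosen after the values were seen. Where no library of a population had over 3 reads, folds were bounds computed against 3 reads. Intervals and floors cover counting error only where they come from reads. Positions and exonic lengths came from GENCODE M21 on the same build, and promoters from RefSeq. Replicate numbers were not used as pairs.

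Alternatives were pseudocounts of 0.5 and 5, no filter or a filter at a mean of 50, quantile normalization, no variance trend, an adjusted p-value under 0.05 with a log2 fold change above 1, edgeR 4.0.16 and DESeq2 1.42.0 on the recovered reads, the replicate number as a block, and each sample left out. Leaving out T1 replicate 3 and T2 replicate 2 together was added after seeing the data. The tests were tested on simulated data. Python 3.11.15 and matplotlib 3.10.9 served for figures.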

Additional observations from a re-analysis of the deposited data

How the results depend on the processing

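The 2 members higher and the 2 members lower in T1 cells stayed at 2 and 2 past both filters under every alternative run, except that wider filters (adjusted p-value below 0.05, log2 fold change beyond 1) also took in Vegfa, at -1.56, among the lower members. Under those filters 1135 genes were higher and 1310 were lower, among them 10 higher and 18 lower genes of the pathway lists. With each sample left out in turn, 444 to 500 genes were higher and 447 to 511 lower, against 480 and 484 with all. Pathway list genes numbered 6 to 7 higher and 9 to 10 lower, against 7 and 9. The log2 fold change of Vegfb was -0.02 and changed sign without T1 replicate 1 (0.02), T1 replicate 2 (0.02) or T2 replicate 1 (0.0328), within a range of -0.10 to 0.03 over the samples left out. Vegfa was under an adjusted p-value of 0.01 in 13 of 16 alternatives, not counting the choice made after seeing the data, and at 0.0274 without the variance trend (limma). The wider filters are counted among the 13, though they reuse the main fit and so its adjusted p-value, 0.00455 (limma). DESeq2 came close to the threshold, with an adjusted p-value of 0.00984. With the replicate number as a block, 481 genes were higher and 486 lower, and the block changed no call of a member. Same-numbered samples deviated together with correlations of 0.06, 0.17 and 0.10. All samples correlated best with their own number except T2 replicate 1, which was closest to T1 replicate 3, at 0.07. The labels call the replicates independent, and the main fit did not take the numbers as pairs. An effect shared by samples of the same number was not tested beyond the block. The median log2 fold change of all genes was -0.0055 in the main fit. It was 0.000626 with scaling by quantiles, -0.00375 with edgeR and -0.00143 with DESeq2. Pdgfc and Vegfc in T2 cells rested on 14 to 20 and 33 to 34 reads per library. For members at 0 reads the floor covers depth only, and the part of the gene annotation or counting settings was not tested.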

Other observations

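The protein-coding genes nearest on either side of Pdgfra, Flt1, Pdgfc and Vegfc were read as well, chosen by position. Next to Pdgfra, Gsx2 (74.4 kilobases away) and Kit (377 kilobases away) had 0 reads in every library, although Kit is a receptor of the same family. Next to Flt1, Pan3, a regulator of mRNA deadenylation 13.1 kilobases away, had a log2 fold change of -0.86 (adjusted p = 2.48e-05, limma), and Pomp, a proteasome assembly factor, had -0.32 (adjusted p = 0.00568, limma). Both were under the adjusted p-value in the direction of Flt1, which had -3.55. Of all genes compared, 24.4% were under it in that direction, and an effect of position was not tested. Next to Pdgfc, Glrb had 0 reads and Ctso, a lysosomal protease 719 kilobases away, averaged 16.1 ± 2.13 normalized counts in T1 and 107 ± 26.4 in T2 cells (SD, n = 3). Its log2 fold change was -2.64 (adjusted p = 9.17e-06, limma), past both filters in the direction opposite to Pdgfc. Next to Vegfc, Neil3 had -0.38 (adjusted p = 0.0185, limma) and Spcs3 0.39 (adjusted p = 0.00288, limma), against 4.01 for Vegfc.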
